A study of Mus musculus with 6 samples.

Results

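The nuclear genes described here encode subunits of the mitochondrial respiratory chain and were chosen by name. All array probes whose gene name opens with Nduf (followed by a, b, c, s or v and a digit), Uqcr, Sdha to Sdhd, or Cox4 to Cox8 were taken. The rule found 66 genes, measured by 94 probes, among the 37072 named genes on the array. Of these, 63 genes were tested among 20832 genes in all, because in at least 1 cell fraction both arrays showed a probe well above background. Genes were assigned to complexes by name alone: Nduf to complex I, Sdh to complex II, Uqcr to complex III and Cox to complex IV. All 37 complex I genes, all 4 complex II genes and all 8 complex III genes were tested, and 14 of the 17 complex IV genes. The 3 genes left untested, Cox7b2, Cox8b and Cox8c, had no probe well above background on any of the 6 arrays.

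The samples were 3 cell fractions of sublingual mucosa from mice of the inbred strain BALB/c, all of which had received 2 paintings of FITC on that mucosa. FITC is a fluorescent dye that also sensitises on contact. Fr1 was CD11c+CD206-, Fr2 was CD11c-F4/80+CD206- and Fr3 was F4/80+CD206hi, each sorted from digested dorsal tongue. CD11c is an integrin used to mark dendritic cells, F4/80 is a macrophage surface antigen, and CD206 is the mannose receptor of resident macrophages. Each fraction had 2 arrays, called replicate 1 and replicate 2, which the series design ascribes to independent experiments. All mice were painted, so no group shows the unpainted state, and the number of mice behind each sort, their age and their sex are not given in the sources used here. Of the 3 sort markers, Mrc1, the CD206 gene, was not well above background on either Fr1 array, stood at 0.98 and 0.65 in Fr2 and at 4.10 and 3.01 in Fr3. Adgre1, the F4/80 gene, was at 4.83 and 4.70 in Fr1, 6.27 and 6.29 in Fr2 and 5.78 and 5.66 in Fr3. Itgax, the CD11c gene, was at 3.05 and 2.66 in Fr1, 3.10 and 1.53 in Fr2 and 0.52 and 1.29 in Fr3, so the CD11c-negative Fr2 overlapped Fr1 at the RNA level.

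Levels throughout are log2 of the processed spot intensity minus the 75th percentile of the same array, so 0 is the 75th percentile of that array and 1 unit is a doubling. A difference between fractions is the difference of the means of 2 arrays each, on this log2 scale. Levels of different genes come from different probes and are not compared with each other. The arrays of Fr1 and Fr3 shared a slide and a scan, and both Fr2 arrays were on the other slide, so Fr2 and its slide cannot be told apart. Between 44.6% and 46.6% of spots were well above background for Fr1, against 51.9% and 52.4% for Fr2 and 52.0% and 46.5% for Fr3. Across the 20832 genes the 2 Fr3 arrays were the least alike (Pearson r = 0.796, across genes), against 0.883 for Fr1 and 0.898 for Fr2. The medians that involve Fr3 are therefore also given without each of its arrays.

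The respiratory chain passes electrons from NADH and succinate to oxygen and pumps protons out of the mitochondrial matrix, and ATP synthase spends the resulting gradient to make ATP. Complex I oxidises NADH, complex II (succinate dehydrogenase) also belongs to the citric acid cycle, complex III passes electrons from ubiquinol to cytochrome c, and complex IV (cytochrome c oxidase) passes them to oxygen. All but complex II combine subunits encoded in the nucleus with subunits encoded in mitochondrial DNA, and in phagocytes the balance between oxidative phosphorylation and glycolysis is known to shift with activation state.

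Nuclear genes of the chain are known to share binding motifs of NRF1 and of ETS factors such as GABP (nuclear respiratory factors) and of YY1 near their starts, and a search of RefSeq promoters (build GRCm38.p6, from 250 bases before to 50 after each start) describes where those letters lie in these genes. Of the 66 genes, 52 had a listed promoter, with 54 promoters in all. The letters GCGCATGC (NRF1), on either strand, were in 7 of 54 promoters (13%), against 2.71% of all 32851 promoters. The letters CCGGAAG (ETS) were in 11 of the 54 (20.4%), against 8.86% of all, and AAGATGGC (YY1) in 7 of the 54 (13%), against 2.75% of all. The first of these motifs reads nearly the same on both strands, so in Cox6a1, Uqcrc1 and Ndufa11 it matched both strands at overlapping positions. A match is a description of the letters and says nothing about binding in these cells. Among genes with NRF1 or ETS letters, Ndufa11, Uqcr11 and Ndufs3 had a higher mean level in Fr1 than in Fr2, by 1.82, 0.24 and 0.44. Their windows are not shown, and neither are those of Ndufa8, Ndufb6, Cox6b1 and Ndufs8, whose means were lower in Fr1. The 8 windows of 30 bases below belong to genes described further on, all with a lower mean in Fr1 than in Fr2. Each is read 5′ to 3′ on the strand of its gene, with the NRF1 letters (the first 4) or the ETS letters (the last 4) in capitals.
Ndufa6, chr15:82354356-82354385, minus strand: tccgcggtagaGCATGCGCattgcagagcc
Sdhb, chr4:140961206-140961235, plus strand: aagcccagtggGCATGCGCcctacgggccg
Uqcrc1, chr9:108936667-108936696, plus strand: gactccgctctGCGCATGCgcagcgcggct
Cox6a1, chr5:115349102-115349131, minus strand: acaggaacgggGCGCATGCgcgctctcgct
Ndufb7, chr8:83566727-83566756, plus strand: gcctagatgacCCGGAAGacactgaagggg
Sdhd, chr9:50603877-50603906, minus strand: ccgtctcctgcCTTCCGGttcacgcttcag
Uqcrh, chr4:116075062-116075091, minus strand: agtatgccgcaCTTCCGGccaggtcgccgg
Cox8a, chr19:7217603-7217632, minus strand: tttccgaaataCTTCCGGctcgggcgtccg

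Most subunit genes had their lowest mean level in Fr1, the CD11c+ fraction, and their highest in Fr2, but no single gene passed the test. The mean was lowest in Fr1 for 43 of 63 members (68.3%, against 33.4% of all genes tested) and highest in Fr2 for 42 (66.7%, against 31.8%). The median level of the 63 genes was 1.49 and 1.0 in Fr1, 2.37 and 1.97 in Fr2, and 1.68 and 1.22 in Fr3. The Fr2 arrays thus lay above all others, and replicate 1 of Fr1 lay between the arrays of Fr3. Among arrays of the same replicate number the order of these medians was Fr1, Fr3, Fr2 for both numbers. Over all 20832 genes the same medians ran only from 0.24 to 0.34. In sorted bulk samples, fewer cells of a type and less RNA per cell cannot be told apart.

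Against Fr2, 49 of the 63 genes had a negative fitted difference (Fr1 minus Fr2), with a median of −1.02, a ratio of 2.02, where the median of all genes was 0.04. Both Fr2 arrays lay above both Fr1 arrays for 40 of 63 members (63.5%), against 22.2% of all genes, and the reverse held for 4 members, against 22.7% of all genes. With limma no member was called (adjusted p under 0.05), and 0% of all genes were. At an unadjusted p under 0.05, there were 10 members with Fr2 the higher (6.42% of all genes) and 1 with Fr1 the higher (3.36% of all genes).

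Against Fr3, which shares the slide, 52 of 63 members had a negative fitted difference (Fr1 minus Fr3), with a median of −0.56 against −0.05 for all genes. Both Fr3 arrays lay above both Fr1 arrays for 29 members (46%), against 21.9% of all genes, and both Fr1 arrays above both Fr3 arrays for 4, against 13.7% of all genes. None was called by limma, as against 0.0048% of all genes (1 gene). At an unadjusted p under 0.05, there were 3 members with Fr3 the higher (5.37% of all genes) and 0 with Fr1 the higher (2.79% of all genes). The median was −0.44 without replicate 1 of Fr3 and −0.87 without replicate 2, when the median of all genes was −0.29 and 0.12. It came nearest to that of all genes without replicate 2 of Fr1, at −0.29 with 46 of 63 members negative, against −0.20 for all genes, and without replicate 1 of Fr1 it was −0.80 against 0.10. Without Fr3 replicate 1 limma called 1396 genes, of which 1 was a member, Ndufs5, with the sign opposite to that of most members.

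Between Fr2 and Fr3 the members differed less. The median difference (Fr2 minus Fr3) was 0.20, with 43 of 63 members positive, against −0.08 for all genes. The median was 0.50 without replicate 1 of Fr3 and 0.46 without replicate 2 of Fr2, when that of all genes was −0.25 and −0.04, and 0.19 against −0.02 without replicate 2 of Fr3. Both Fr2 arrays lay above both Fr3 arrays for 22 members (34.9%), against 19.4% of all genes, and the reverse held for 9 members, against 22.6% of all genes. None was called by limma (0.0048% of all genes, 1 gene), and at an unadjusted p under 0.05 the counts were 1 member in each direction, against 4.84% of all genes with Fr2 higher and 4.06% with Fr3 higher. A joint F-test over the 3 fractions called no member either (0.0048% of all genes). The comparisons of Fr1 with Fr2 and of Fr1 with Fr3 share the Fr1 arrays, so they are not independent of each other.

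**Figure D1:**
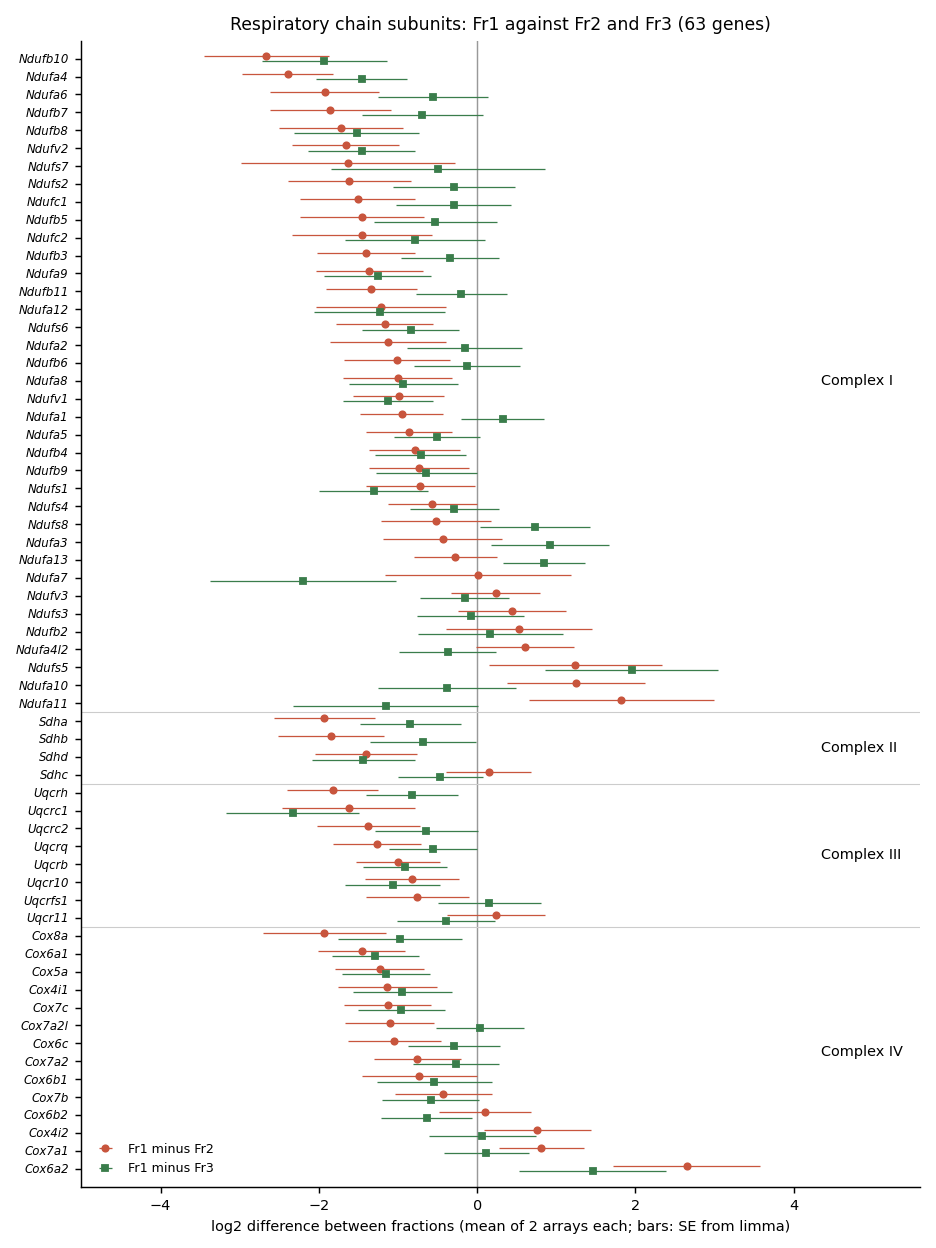
Fitted log2 difference of each of the 63 subunit genes between Fr1 and Fr2 (circles) and between Fr1 and Fr3 (squares), grouped by complex, with SE from limma over 6 arrays. Values left of 0 are lower in Fr1; 49 genes lie left of 0 against Fr2 and 52 against Fr3.

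Counting both comparisons together, both Fr1 arrays lay below all 4 other arrays for 22 of 63 members (34.9%), against 10.9% of all genes, and above all 4 for none, against 6.09% of all genes. The 22 comprised 6 of the 8 complex III genes (Uqcr10, Uqcrb, Uqcrc1, Uqcrc2, Uqcrh and Uqcrq), 9 of the 37 complex I genes (Ndufa4, Ndufa5, Ndufa9, Ndufb4, Ndufb8, Ndufb10, Ndufs6, Ndufv1 and Ndufv2), 2 of the 4 complex II genes (Sdha and Sdhd) and 5 of the 14 complex IV genes (Cox4i1, Cox5a, Cox6a1, Cox7a2 and Cox7c). The probes of Ndufa9 and Uqcrc1 were not well above background on either Fr1 array, so their Fr1 values are only upper limits. The Ndufv1 probe was well above background on only 1 Fr1 array. Another Ndufv1 probe on the RefSeq mRNA, well above background on all arrays, had both Fr1 arrays above all 4 others. It was at −0.45 and −0.45 in Fr1, −1.70 and −1.82 in Fr2 and −2.03 and −0.88 in Fr3. Set against its own mean over the 6 arrays, the median member stood at −0.23 and −0.76 in Fr1, 0.56 and 0.25 in Fr2, and 0.32 and −0.02 in Fr3. Replicate 2 was below replicate 1 for 48 of 63 members in Fr1, 37 in Fr2 and 45 in Fr3, so the arrays of a fraction also differed among themselves. The median of replicate 2 minus replicate 1 over the members was −0.45, −0.29 and −0.39 in Fr1, Fr2 and Fr3, where that of all genes was 0.17, 0.05 and 0.33.

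**Figure D2:**
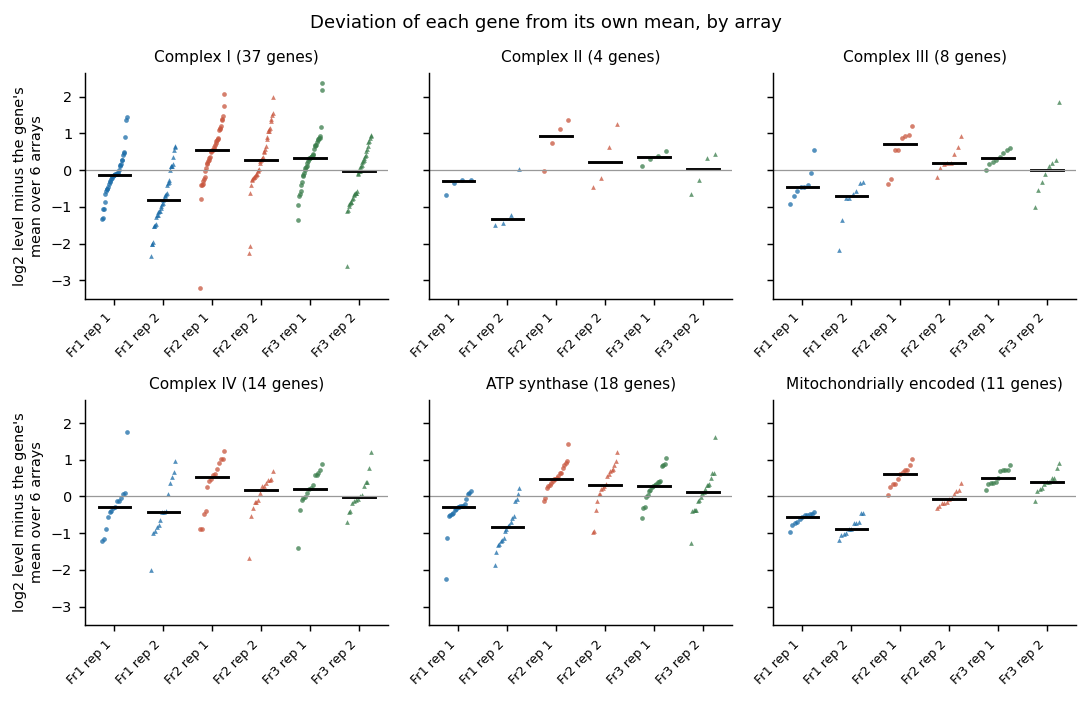
Log2 level of each gene minus its own mean over the 6 arrays, by array, for the 4 complexes, ATP synthase and the genes of mitochondrial DNA; each point is a gene and black lines are medians. The medians of both Fr1 arrays lie below 0 in every panel, and those of replicate 2 lie below those of replicate 1 in every fraction and panel.

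The contents of the fractions also differed in markers of other cells. Of 12 macrophage markers, 8 were well above background on both arrays in Fr1, 9 in Fr2 and 11 in Fr3. Their summed level, in units of the array's 75th percentile, was 100 to 108, 183 to 385 and 620 to 895. Each marker sum takes, for every gene, the brightest of all its probes on that array, well above background or not. The probe of a gene can thus differ between arrays. Mrc1, Lyve1 and Mertk were at background in Fr1, and Mertk also in Fr2. Of 12 neutrophil markers, 9, 11 and 8 were above background. Their sums were 156 to 167 in Fr1, 683 to 774 in Fr2 and 37.3 to 69.5 in Fr3. Ly6g was at background in Fr1 and Fr3, Ltf in Fr1 and Elane in Fr3. Of 10 eosinophil markers, 9, 10 and 7 were above background, with sums of 26.4 to 29.3, 102 to 199 and 10.4 to 19.1. Prg2 was at background in Fr3. Of 12 dendritic cell markers, 10, 9 and 8 were above background, with sums of 25.6 to 37.3, 33.8 to 52.9 and 25.5 to 61.3. Batf3 was at background in all 3 fractions, and Clec9a and Btla in Fr3. Gene by gene, 10 of the 11 dendritic cell markers tested had a higher fitted mean in Fr1 than in Fr3, with a median difference of 1.85, and 7 of 11 than in Fr2, with a median of 0.54. Of 11 T and NK cell markers, 6 were above background in each fraction. Their sums were 28.7 to 35.7 in Fr1, 15.5 to 23.6 in Fr2 and 16.8 to 20.6 in Fr3. At background were Cd3d in Fr1, Cd3g, Cd8a and Gzmb in Fr2, and Cd3g and Gzmb in Fr3. The median difference of the 8 tested (Fr1 minus the other fraction) was 1.64 for Fr3 and 0.49 for Fr2. Of 10 markers each of epithelium, fibroblasts and endothelium, 1 to 7 were above background in a fraction, and none of these sums exceeded 12.8. The neutrophil and eosinophil sums were thus highest in Fr2, as the subunit medians were, and the macrophage sum was highest in Fr3. The T and NK cell sum was highest in Fr1, where the subunit medians were lowest. The part of these cells in the results, and that of the lower share of bright spots on the Fr1 arrays, was not tested.

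Complex I, the NADH dehydrogenase, is the largest complex of the chain, built from catalytic core subunits and many accessory ones. The 37 genes counted under it by name, Ndufa4 and Ndufa4l2 among them, had medians of −0.51 (Fr1 minus Fr3), −1.0 (Fr1 minus Fr2) and 0.35 (Fr2 minus Fr3). Both Fr2 arrays were above both Fr1 arrays for 22 of the 37 (22.2% of all genes) and below them for 2 (22.7% of all genes). Both Fr3 arrays were above both Fr1 arrays for 15 (21.9% of all genes) and below them for 4 (13.7% of all genes). Single genes ran from −2.67 (Ndufb10) to 1.82 (Ndufa11) for Fr1 minus Fr2 and from −2.20 (Ndufa7) to 1.95 (Ndufs5) for Fr1 minus Fr3.

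The smallest p of any member was that of Ndufa4, a subunit first listed with complex I and now assigned to complex IV (probe at chr6:11850423-11850482, build mm9). By its name it is counted with complex I here. Ndufa4 stood at −0.59 and −1.05 in Fr1, at 1.19 and 1.96 in Fr2 and at 0.83 and 0.45 in Fr3. The 3 fractions did not overlap, with Fr1 lowest and Fr2 highest. The difference from Fr2 was −2.40 (SE 0.58), a ratio of 5.26, with adjusted p = 0.326 by limma. The difference from Fr3 was −1.46 (SE 0.58; limma, adjusted p = 0.586).

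Ndufb10, an accessory subunit of the membrane arm, had the widest difference from Fr2 among the members. It was at −0.63 and −1.60 in Fr1, 0.69 and 2.40 in Fr2 and 1.30 and 0.33 in Fr3. Fr1 lay below both other fractions, whose arrays overlapped, and the Fr2 arrays were far apart. The difference was −2.67 from Fr2 (SE 0.79; limma, adjusted p = 0.402) and −1.93 from Fr3 (SE 0.79; adjusted p = 0.598).

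Ndufv2, an iron-sulfur core subunit of the NADH-oxidising module, was at −0.50 and −0.87 in Fr1, 1.74 and 0.20 in Fr2 and 0.94 and 0.60 in Fr3, with Fr1 again below all 4 other arrays. Its difference from Fr3 was −1.46 (SE 0.68; limma, adjusted p = 0.622). Ndufa6, an accessory subunit that binds the mitochondrial acyl carrier protein, was at −0.55 and 0.38 in Fr1, 1.55 and 2.14 in Fr2 and 1.11 and −0.17 in Fr3. Only the Fr2 arrays stood apart from Fr1, by −1.93 (SE 0.69; limma, adjusted p = 0.465), while the Fr1 and Fr3 arrays overlapped. Ndufa6 and Ndufv2 differ in this respect as values, and the difference between them was not tested. Ndufb7, an accessory subunit at 3.70 and 2.44 in Fr1, 4.78 and 5.08 in Fr2 and 4.58 and 2.95 in Fr3, likewise had the Fr2 arrays above all others and Fr1 overlapping Fr3.

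The comparison of Fr2 with Fr3 led to other subunits. Ndufa1, a small X-linked accessory subunit needed for assembly, had close replicates, at 1.46 and 1.25 in Fr1, 2.40 and 2.21 in Fr2 and 1.16 and 0.90 in Fr3. Ndufa13, another accessory subunit, was at 3.45 and 3.31 in Fr1, 3.54 and 3.77 in Fr2 and 2.50 and 2.57 in Fr3. In both genes the 3 fractions did not overlap and Fr3, not Fr1, was lowest. A second Ndufa13 probe, on an Ensembl transcript, did not show this order: it was at −1.0 and −0.64 in Fr1, −0.73 and −0.47 in Fr2 and −0.93 and −0.09 in Fr3, all overlapping. The difference Fr2 minus Fr3 was 1.27 for Ndufa1 (SE 0.52; limma, adjusted p = 0.555) and 1.12 for Ndufa13 (SE 0.52; adjusted p = 0.59), against −0.09 by its second probe. Ndufa3 and Ndufs8 were the other members with both Fr1 arrays above both Fr3 arrays. A second Ndufa3 probe had the opposite sign, with Fr1 minus Fr3 at −0.24 against 0.92 by the brightest, both on the RefSeq mRNA. Ndufa11, an accessory subunit of the membrane arm, had the smallest p of the complex in this comparison but widely spread arrays. It was at −1.35 and −0.68 in Fr1, −4.46 and −1.22 in Fr2 and 1.12 and −0.85 in Fr3, and only 1 of the 2 Fr2 arrays was well above background. Its difference of −2.98 (SE 1.17; limma, adjusted p = 0.542) rests mainly on the first replicates.

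**Figure D3:**
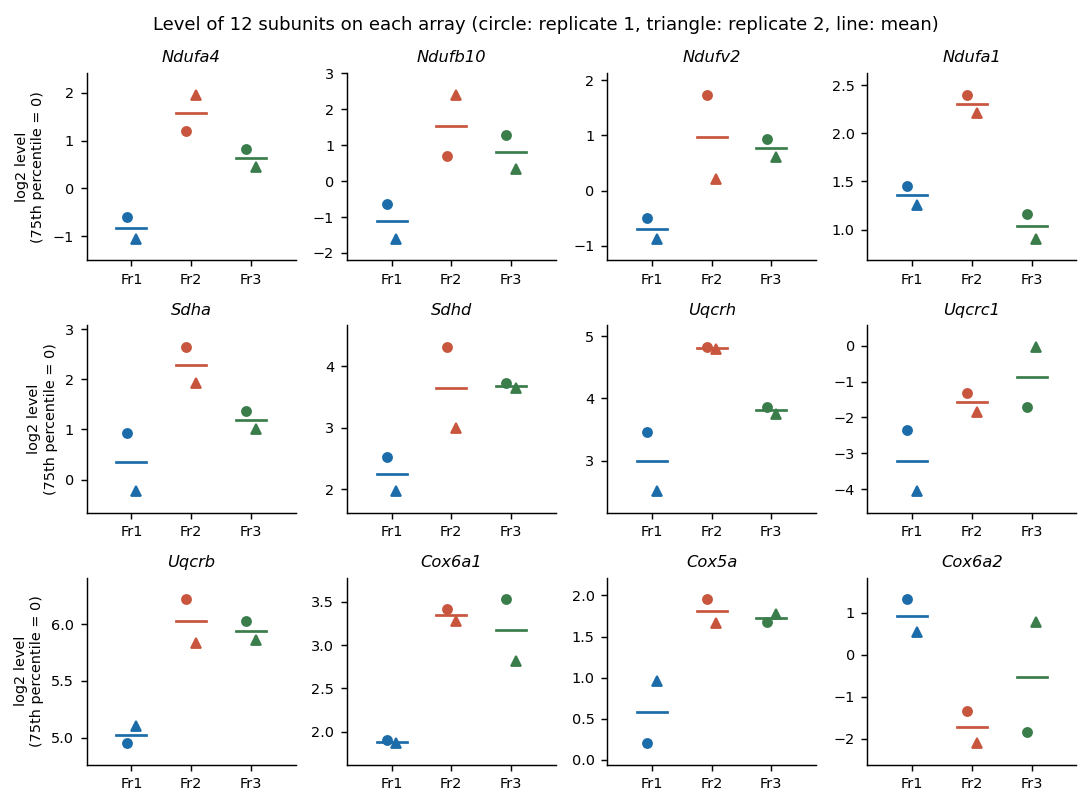
Log2 level of 12 subunits on each array (circles, replicate 1; triangles, replicate 2; line, mean of 2), with the 75th percentile of the array at 0 and a separate axis for each gene. Fr1 lies below both other fractions in all panels except Ndufa1, where Fr3 is lowest, and Cox6a2, where Fr1 has the highest mean; Uqcrc1 was not well above background on the Fr1 arrays.

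Succinate dehydrogenase, complex II, is encoded entirely in the nucleus by Sdha (the flavoprotein), Sdhb (the iron-sulfur subunit) and the membrane anchors Sdhc and Sdhd. Sdha was at 0.93 and −0.23 in Fr1, 2.64 and 1.92 in Fr2 and 1.38 and 1.01 in Fr3. Sdhb was at 0.89 and −0.28, 1.89 and 2.41 and 1.47 and 0.51 in the same order. In both genes Fr2 was highest without overlap, and Fr1 was below Fr3 without overlap for Sdha only. Another Sdha probe on the RefSeq mRNA turned the sign, with Fr1 minus Fr2 at 0.42 and Fr2 minus Fr3 at −1.35, and was well above background on only 1 array each of Fr1 and Fr2. Against Fr2 the differences were −1.93 for Sdha (SE 0.64; limma, adjusted p = 0.441) and −1.85 for Sdhb (SE 0.67; adjusted p = 0.469).

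The anchors differed from each other in pattern. Sdhd was at 2.52 and 1.97 in Fr1, 4.31 and 2.99 in Fr2 and 3.72 and 3.64 in Fr3, so Fr1 lay below all other arrays and the close Fr3 arrays fell between those of Fr2. Its differences were −1.44 from Fr3 (SE 0.65; limma, adjusted p = 0.622) and −1.41 from Fr2 (SE 0.65; adjusted p = 0.539). Sdhc was at 0.94 and 1.24 in Fr1, 1.16 and 0.73 in Fr2 and 1.58 and 1.53 in Fr3, with Fr1 and Fr2 overlapping and Fr3 above both. The difference of Sdhc from Fr3 was −0.46 (SE 0.53; limma, adjusted p = 0.844), smaller than its SE.

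In complex III, 6 of 8 genes had both Fr1 arrays below all other arrays, beside 9 of 37 in complex I, 2 of 4 in complex II and 5 of 14 in complex IV; these shares were not tested against each other. Its medians were −0.73 (Fr1 minus Fr3), −1.13 (Fr1 minus Fr2) and 0.40 (Fr2 minus Fr3). Uqcrh, the hinge protein beside the docking site of cytochrome c, was at 3.46 and 2.51 in Fr1, 4.83 and 4.80 in Fr2 and 3.86 and 3.76 in Fr3. The replicates of Fr2 and of Fr3 nearly coincided and the 3 fractions did not overlap. The difference from Fr2 was −1.82 (SE 0.58; limma, adjusted p = 0.427), and Fr2 minus Fr3 was 1.0 (SE 0.58; adjusted p = 0.61).

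Uqcrc1 and Uqcrc2 are the large core proteins on the matrix side. The Uqcrc1 probe was not well above background on either Fr1 array, where it read −2.35 and −4.05, and was at −1.33 and −1.84 in Fr2 and −1.72 and −0.03 in Fr3. Measured against the lowest signal well above background, Fr3 was at least 2.08-fold and Fr2 at least 1.27-fold above Fr1 (limma, adjusted p = 0.534 and 0.576). Uqcrc2 was at 3.09 and 2.90 in Fr1, 4.88 and 3.87 in Fr2 and 4.14 and 3.13 in Fr3, with a difference from Fr2 of −1.37 (SE 0.65; limma, adjusted p = 0.552). The lower Fr3 array exceeded the higher Fr1 array only narrowly.

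Among the small subunits, Uqcrb, which lies near the ubiquinone site, was at 4.95 and 5.11 in Fr1, 6.22 and 5.84 in Fr2 and 6.02 and 5.86 in Fr3. Uqcr10 was at −0.12 and 0.44 in Fr1, 0.54 and 1.43 in Fr2 and 1.39 and 1.07 in Fr3. Uqcrq was at 3.70 and 3.39 in Fr1, 5.04 and 4.59 in Fr2 and 4.38 and 3.83 in Fr3. In all 3 genes the Fr1 arrays were lowest, while Fr2 and Fr3 overlapped in Uqcrb and Uqcr10 and did not in Uqcrq. The differences from Fr3 were −0.91 for Uqcrb (SE 0.53; limma, adjusted p = 0.632) and −1.07 for Uqcr10 (SE 0.59; adjusted p = 0.626). Uqcrq differed from Fr2 by −1.27 (SE 0.56; limma, adjusted p = 0.526). Uqcrfs1, the Rieske iron-sulfur protein, did not share the order: it was at 3.01 and 2.76 in Fr1, 4.0 and 3.28 in Fr2 and 3.37 and 2.09 in Fr3, with Fr1 inside the range of Fr3. The remaining gene, Uqcr11, overlapped between all fractions except that Fr3 lay above Fr2.

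In complex IV the medians were −0.56 (Fr1 minus Fr3), −0.90 (Fr1 minus Fr2) and 0.17 (Fr2 minus Fr3). Both Fr2 arrays were above both Fr1 arrays for 8 of the 14 genes (22.2% of all genes) and below them for 2 (22.7% of all genes). Both Fr3 arrays were above both Fr1 arrays for 5 (21.9% of all genes) and below them for none (13.7% of all genes). Single genes ran from −1.93 (Cox8a) to 2.65 (Cox6a2) for Fr1 minus Fr2. Cox6a1, the widely expressed form of a regulatory subunit, had Fr1 replicates that nearly coincided at 1.91 and 1.87, against 3.41 and 3.28 in Fr2 and 3.53 and 2.82 in Fr3. Fr1 was lowest and the other 2 fractions overlapped. Its differences were −1.46 from Fr2 (SE 0.55; limma, adjusted p = 0.479) and −1.29 from Fr3 (SE 0.55; adjusted p = 0.616).

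Cox5a, a subunit on the matrix side that contacts Cox4, was at 0.20 and 0.95 in Fr1, 1.95 and 1.66 in Fr2 and 1.68 and 1.78 in Fr3. Cox7c, a small membrane subunit, was at 3.98 and 3.71 in Fr1, 4.96 and 4.99 in Fr2 and 5.12 and 4.48 in Fr3. Both had Fr1 lowest, with differences from Fr3 of −1.15 (SE 0.56; limma, adjusted p = 0.622) and −0.96 (SE 0.55; adjusted p = 0.629). Cox8a was at 1.46 and −0.59 in Fr1, 2.63 and 2.10 in Fr2 and 1.61 and 1.22 in Fr3. Its Fr1 arrays were over 2 units apart and overlapped Fr3, and the difference from Fr2 was −1.93 (SE 0.78; limma, adjusted p = 0.503).

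Cox7a2l and Cox6c had Fr2 above the rest. Cox7a2l, a protein that joins complexes III and IV in supercomplexes, was at 4.60 and 4.49 in Fr1, 5.93 and 5.36 in Fr2 and 4.80 and 4.21 in Fr3. Cox6c was at 1.54 and 0.90, 2.57 and 1.97 and 1.77 and 1.27, respectively. Fr1 and Fr3 overlapped in both genes, and Fr2 minus Fr3 was 1.14 for Cox7a2l (SE 0.56; limma, adjusted p = 0.599) and 0.75 for Cox6c (SE 0.58; adjusted p = 0.656).

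The measured isoforms known for restricted expression all had their lowest mean in Fr2, unlike most members. Against Fr3, Cox6b2 (−0.64) and Ndufa4l2 (−0.37) were lower in Fr1, like most members. Cox6a2 (1.46), Cox7a1 (0.12) and Cox4i2 (0.07) were not. Cox6a2, the form of heart and skeletal muscle, was at 1.32 and 0.53 in Fr1, −1.34 and −2.11 in Fr2 and −1.84 and 0.76 in Fr3. Fr1 lay above Fr2 without overlap, by 2.65 (SE 0.93; limma, adjusted p = 0.457), and the Fr3 arrays were too far apart to place. Cox7a1, the other muscle form, was at 0.08 and 0.51 in Fr1, −0.49 and −0.53 in Fr2 and −0.02 and 0.37 in Fr3. Fr2 was lowest, and Fr2 minus Fr3 was −0.69 (SE 0.54; limma, adjusted p = 0.657). Of 20 skeletal muscle markers, 9 were well above background on both arrays in Fr1, 13 in Fr2 and 11 in Fr3, with summed levels of 41.6 to 44.0, 36.8 to 45.3 and 55.3 to 61.6. Ckm and Actn3, the muscle creatine kinase and a fast-fibre actinin, were at background in all 3 fractions; the part of muscle RNA in the values of these isoforms was not tested.

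Cox4i2, known from lung and from low oxygen, was at 2.94 and 3.75 in Fr1, 2.20 and 2.99 in Fr2 and 2.71 and 3.86 in Fr3. Ndufa4l2, known as a target of the hypoxia response, was at −1.87 and −0.78 in Fr1 (1 of 2 arrays well above background), −2.19 and −1.68 in Fr2 and −1.08 and −0.83 in Fr3. Cox6b2, the testis form, was at −0.64 and −0.17, −0.62 and −0.38 and 0.65 and −0.18, respectively. Arrays of Fr1 overlapped those of both other fractions in all 3 genes. The untested Cox7b2 and Cox8c are testis forms and Cox8b is a form of heart and muscle. Leaving the 5 measured isoforms out, the median of the other 58 members was −0.61 (Fr1 minus Fr3), −1.12 (Fr1 minus Fr2) and 0.34 (Fr2 minus Fr3).

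Other genes of oxidative phosphorylation were read from lists of gene names. ATP synthase had all 18 listed genes tested, with medians of −0.78 (Fr1 minus Fr3), −1.07 (Fr1 minus Fr2) and 0.22 (Fr2 minus Fr3), and none was called. Both Fr1 arrays lay below both Fr3 arrays for 11 of the 18 (21.9% of all genes) and below both Fr2 arrays for 13 (22.2% of all genes), and above them for 1 in each comparison (13.7% and 22.7% of all genes). Atp5j2, a subunit of the membrane part, was at 1.98 and 3.05 in Fr1, 4.47 and 4.93 in Fr2 and 5.10 and 5.87 in Fr3. Its difference from Fr3 was −2.97 (SE 0.64; limma, adjusted p = 0.272, and 0.0478 without Fr3 replicate 1, when 1396 genes were called). Atp5o, of the peripheral stalk, was at 1.22 and 1.47 in Fr1, 3.31 and 3.20 in Fr2 and 2.38 and 2.46 in Fr3, all apart. Atp5o differed from Fr2 by −1.92 (SE 0.52; limma, adjusted p = 0.368). Atp5f1, also of the stalk, differed from Fr3 by −1.43 (SE 0.59; adjusted p = 0.607). The small subunit listed as 2010107E04Rik had its highest levels in Fr2, and Fr2 minus Fr3 was 1.07 (SE 0.53; limma, adjusted p = 0.599).

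Genes named for mitochondrial DNA had a probe for 11 of 13, all tested and none called, and in all 11 both Fr1 arrays lay below all 4 others (10.9% of all genes). Their medians were −1.13 (Fr1 minus Fr3), −1.08 (Fr1 minus Fr2) and −0.29 (Fr2 minus Fr3). Fr3 had the higher fitted mean of Fr2 and Fr3 in 7 of the 11, against 20 of the 63 nuclear members. Over all genes this held for 11041 of 20832. ATP8, an ATP synthase subunit, was at 5.05 and 5.02 in Fr1, 5.78 and 5.49 in Fr2 and 6.48 and 6.67 in Fr3, with close replicates and no overlap. It differed from Fr3 by −1.54 (SE 0.52; limma, adjusted p = 0.503). ND2, of complex I, differed from Fr3 by −1.41 (SE 0.56; limma, adjusted p = 0.591). CYTB, the cytochrome b of complex III, differed from Fr2 by −1.21 (SE 0.54; limma, adjusted p = 0.53). COX1, the catalytic subunit of complex IV, was at 10.28 and 10.34 in Fr1, 11.13 and 10.49 in Fr2 and 10.97 and 11.58 in Fr3, with Fr1 lowest. The probe named ND3 lies at chr1:24619613-24619672 (mm9) in the files, a nuclear position, and differed from Fr2 by −1.59 (SE 0.59; limma, adjusted p = 0.474). These transcripts come from few precursors and are not independent of one another.

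Of 14 listed chain proteins outside the name rule, 10 were tested, with medians of −0.81, −0.70 and 0.19 (Fr1 minus Fr3, Fr1 minus Fr2, Fr2 minus Fr3) and none called. Coq2, which attaches the side chain in ubiquinone synthesis, was not well above background on either Fr1 array, and Fr2 was at least 2.52-fold above Fr1 (limma, adjusted p = 0.342). Coq6, a hydroxylase of the same pathway, differed from Fr3 by −1.56 (limma, SE 0.72, adjusted p = 0.622). Its Fr1 values, −2.46 and −2.63, were under the lowest signal well above background on those arrays (−2.07 and −1.80). They are only upper limits, so the size of this difference is uncertain. Ndufab1, the mitochondrial acyl carrier protein, differed from Fr2 by −1.28 (SE 0.62; adjusted p = 0.556). Etfdh, which feeds electrons from fatty acid oxidation into the chain, was well above background in Fr2 only, at least 1.41-fold above Fr3 (adjusted p = 0.61).

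Assembly factors, which build the complexes without staying in them, had 32 of 44 genes tested and none called, with medians of −0.52, −0.63 and 0.01 in the same order. Higd2a, a complex IV factor, was at 1.73 and 1.43 in Fr1, 3.98 and 2.79 in Fr2 and 4.61 and 4.06 in Fr3, with no overlap between the 3. It differed from Fr3 by −2.75 (SE 0.63; limma, adjusted p = 0.292). Surf1, needed for early complex IV assembly, was at −2.90 and −4.03 in Fr1, −0.91 and −1.41 in Fr2 and −0.39 and 2.15 in Fr3. Both Fr1 values were under the lowest signal well above background on their arrays (−2.07 and −1.80). They are only upper limits, so the size of any Surf1 difference that involves Fr1 is uncertain. The Surf1 difference from Fr3 was −4.34 (SE 0.93; limma, adjusted p = 0.265, and 0.0166 without Fr3 replicate 1, among the same 1396 genes). Sco2, a copper chaperone of complex IV, ran the other way: it was at background in Fr2, and Fr3 was at least 3.29-fold above it (limma, adjusted p = 0.508). Its fitted difference Fr1 minus Fr2 was 2.43 (SE 0.91; limma, adjusted p = 0.474), with 1 of the 2 Fr1 arrays well above background. The other Fr1 value, −2.20, was under the lowest signal well above background on that array (−2.07), so the size of this difference is uncertain. Foxred1, a complex I factor, differed between Fr2 and Fr3 by −2.42 (SE 0.73; adjusted p = 0.396) with 1 of the 2 Fr2 arrays well above background.

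Of 16 citric acid cycle genes 13 were tested, with medians of −0.23, −0.14 and 0.22 and none called. Mdh2, the malate dehydrogenase of the cycle, was at 5.38 and 5.10 in Fr1, 6.62 and 6.52 in Fr2 and 5.52 and 5.10 in Fr3, so Fr2 stood above the rest. It differed between Fr1 and Fr2 by −1.33 (SE 0.53; limma, adjusted p = 0.502). Suclg2, of succinyl-CoA ligase, differed from Fr2 by −4.02 (limma, SE 1.14, adjusted p = 0.385), with Fr1 arrays over 3 units apart. The lower of them, at −3.81, was under the lowest signal well above background on that array (−1.80). Idh3b, of isocitrate dehydrogenase, had Fr3 above both others, and Fr2 minus Fr3 was −1.70 (SE 0.54; adjusted p = 0.425). Sucla2, also a gene of succinyl-CoA ligase, had a difference from Fr3 of −1.93 by its brightest probe (limma, SE 0.76, adjusted p = 0.586). With probes over 30% T left out it was 2.33. The brightest probe was under the lowest signal well above background on both Fr1 arrays, at −2.08 and −2.43, so the size of the first difference is uncertain.

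Regulators of mitochondrial biogenesis had medians near 0. Of 16 listed, 12 were tested and none was called, with medians of 0.09, 0.0026 and 0.15. By probes over 30% T, Fr1 minus Fr3 was 3.60 for Mterf1a, 2.32 for Tfb1m, 1.99 for Tfb2m and 1.31 for Nrf1. It was 0.33 for Gabpb1, −0.01 for Esrra and −0.39 for Polrmt. By probes of at most 30% T it was 0.20 for Pprc1, −0.16 for Polg, −0.99 for Yy1, −1.01 for Ssbp1 and −1.52 for Gabpa. The part of T content in these medians was not tested. Ppargc1a, Ppargc1b and Tfam were among the 4 without a probe above background on both arrays of a fraction. Gabpa, the DNA-binding part of GABP, was at 1.23 and 1.82 in Fr1, 3.05 and 3.15 in Fr2 and 3.33 and 2.76 in Fr3, with Fr1 lowest and a difference from Fr2 of −1.57 (SE 0.56; limma, adjusted p = 0.464). Nrf1 was at 4.77 and 4.10 in Fr1, 3.40 and 3.34 in Fr2 and 3.67 and 2.58 in Fr3, with Fr1 highest. Its difference from Fr3 was 1.31 (SE 0.62; adjusted p = 0.622) by the brightest probe and −0.10 with probes over 30% T left out. Ssbp1, which binds single-stranded mitochondrial DNA, differed from Fr2 by −1.01 (limma, SE 0.56, adjusted p = 0.603). Tfb2m, read by a probe with 40% T, was at 3.31 and 3.42 in Fr2 and at 2.63 and −0.52 in Fr3, whose arrays were far apart. Polrmt, the mitochondrial RNA polymerase, and Tfb2m, its initiation factor, differed between Fr2 and Fr3 by −1.24 (SE 0.56; adjusted p = 0.58) and 2.31 (SE 1.02; adjusted p = 0.576, and 0.0342 without Fr3 replicate 1, when limma called 934 genes in that comparison).

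Members with more than 1 kept probe showed how far a value depends on the probe. In 16 members another kept probe could be set beside the brightest, giving 17 probe pairs. The sign of the difference was opposite in 8 of the 17 pairs for Fr1 minus Fr3, 6 for Fr1 minus Fr2 and 7 for Fr2 minus Fr3. Counting only pairs in which both probes were well above background on 1 or more arrays of both fractions, it was opposite in 4 of 13, 5 of 14 and 5 of 14. The 3 members with the widest disagreement were Ndufv3, Ndufs5 and Ndufb2, accessory subunits of complex I. The middle 30 of the 60 bases of their probes are printed 5′ to 3′ as on the array, with T in capitals because the share of T was 48.3% in the brightest Ndufs5 probe against a median of 26.7% over the members; coordinates are of the whole probe on build mm9, and one that spans over 60 bases crosses an intron.
Ndufv3 brightest probe, chr17:31663758-31663817: cacTcccTccgTccTacTgacTTgTcTcac
Ndufv3 other probe, chr17:31668209-31668268: TggTTcccaTgaaTccTTgccTgTgagaaT
Ndufs5 brightest probe, chr4:123393745-123393804: aaaTaaaTagTgTgcTTaTaTTaTTTcTca
Ndufs5 other probe, chr4:123389974-123390033: gaaTaTTTaaggaaagcTccTTcaTTaagT
Ndufb2 brightest probe, chr6:39548336-39549425: cTcTggacgagagcaaggTgagacaTTTca
Ndufb2 other probe, chr6:39552854-39552913: acTaTagaaaggcTgTgaTTgccagcTgTg

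The brightest Ndufs5 probe, designed on a full-length cDNA clone, was at 2.19 and 1.40 in Fr1, 0.50 and 0.61 in Fr2 and 1.56 and −1.88 in Fr3. The other probe, designed on the RefSeq mRNA, was at −1.84 and −2.02, 0.04 and −0.12 and −1.43 and −1.55. By the first probe Fr1 minus Fr2 was 1.24, and by the second it was −1.89, with Fr1 lowest as in most members. Ndufs5 is the member that limma called in Fr1 against Fr3 without Fr3 replicate 1, and that call belongs to the T-rich probe. For Ndufv3 the difference Fr2 minus Fr3 was −0.40 by the brightest probe. The Ndufv3 probe on the RefSeq mRNA was not well above background on either Fr3 array, and by it Fr2 was at least 2.76-fold above Fr3. For Ndufb2, both of whose probes were designed on Ensembl transcripts, Fr1 minus Fr2 was 0.53 by the brightest. The other Ndufb2 probe was not well above background on either Fr1 array, and by it Fr2 was at least 1.42-fold above Fr1.

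Sdha and Ndufv1 were also affected. Sdha had 3 kept probes: Fr1 minus Fr2 was −1.93 by the brightest and 0.42 by a further one on the RefSeq mRNA. The third, on an Ensembl transcript, was not well above background in Fr1, and by it Fr2 was at least 2.78-fold above Fr1. Ndufv1, which carries the flavin where NADH is oxidised, gave −0.99 and 1.31, both from probes on the RefSeq mRNA. Over all members, 17 of 63 brightest probes held over 30% T (27%), against 41.3% of all genes. The members with at most 30% T (46 genes) had medians of −0.56, −1.0 and 0.19, and the 17 above it −0.79, −1.05 and 0.66 (Fr1 minus Fr3, Fr1 minus Fr2, Fr2 minus Fr3), so the sign was shared by both groups. With the mean of all kept probes in place of the brightest, the medians were −0.56, −1.05 and 0.27.

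**Figure D4:**
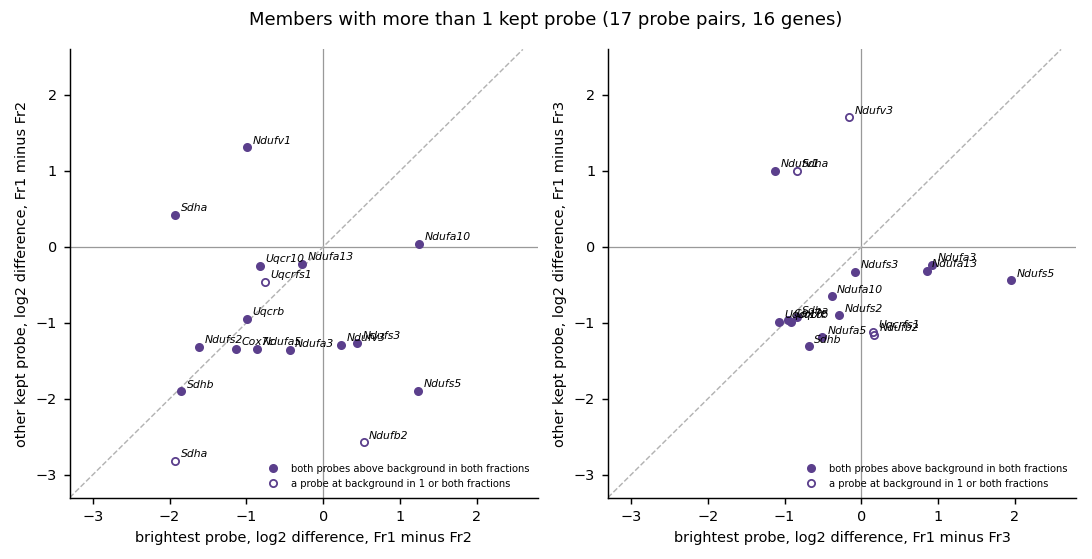
Log2 difference by the brightest kept probe (horizontal) and by another kept probe of the same gene (vertical) for 17 probe pairs of 16 members, for Fr1 minus Fr2 (left) and Fr1 minus Fr3 (right); the dashed line marks equal values. Points above the horizontal zero line and left of the vertical one, or below and right, are pairs of opposite sign, 6 on the left panel and 8 on the right; open circles mark pairs with a probe not well above background on either array of 1 or both fractions, 3 on the left and 4 on the right.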

How the data were processed

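Single-channel spot intensity values come from the authors' scanner files. Per the file headers, Feature Extraction 11.5.1.1 had subtracted background and set surrogates for dim spots. Per the labels' protocols, Cy3-labelled cDNA came from whole-transcriptome amplification. A deposited table of the authors' log2 values has a 75th percentile of 0 (column medians −2.44 to −2.25, Pearson r = 0.9999 with the scanner values) and served as an alternative.

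Spots of a probe were averaged, 4 of 56605 probes with an outlier flag were dropped, and 27867 passed the filter (both arrays of 1 or more fractions well above background). Except in the marker sums, a gene is its brightest kept probe under the name in the files. Of 94 member probes, 77 matched a RefSeq accession, all under the same name. No genome was used, so whether a probe lies in coding sequence was not analysed here. Adjusted p-values throughout come from limma 3.58.1 (R 4.3.3; Python 3.11.15), with 3 group means over 6 arrays and Benjamini-Hochberg over 20832 genes, two-sided; the code was tested on simulated data. Precision is limited by 2 arrays a fraction: an exact test of 2 against 2 cannot go below p = 0.333. Where no array of a fraction was well above background, "at least" folds use the lowest signal well above background. Surf1, Coq6 and Sucla2 have no such fold, because another of their probes was well above background on an Fr1 array. Sco2 has one for Fr3 over Fr2 only, because 1 of its Fr1 arrays was not well above background. Replicate numbers were not taken to pair the samples, since the labels do not tie a number to a shared experiment. The correlation of replicate differences was 0.118 for Fr1 and Fr2, 0.433 for Fr1 and Fr3 and 0.0455 for Fr2 and Fr3. Whether fractions of the same number shared an experiment was not tested.

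Members, lists, markers and tests were chosen with earlier results of these data known. Genes named were all Sdh genes, the 3 smallest p per complex and comparison, all restricted isoforms, untested members, the 2 smallest p per other list and comparison, the 3 widest probe disagreements and the sort markers; further genes were named after their values were seen. Alternatives changed background correction, normalization, filter, probe choice, fit, replicate block and arrays.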

Additional observations from a re-analysis of the deposited data

How the results depend on the processing

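With 2 arrays a fraction the call counts carry little weight. No member was called in any comparison under any alternative that kept all arrays. Leaving out 1 array in turn gave 0 to 1 called members for Fr1 minus Fr3 (1 without Fr3 replicate 1, the lone array being assumed to vary like the others). The member median kept its sign under all alternatives. It ran from −0.87 to −0.29 for Fr1 minus Fr3, −1.22 to −0.77 for Fr1 minus Fr2 and 0.19 to 0.50 for Fr2 minus Fr3 when 1 array was left out, and normexp background correction gave −0.32, −0.66 and 0.12 in that order, the offset of 50 compressing dim signals. Members without overlap, by the array left out, numbered 29 to 48 with Fr3 above Fr1 (48 without Fr3 replicate 2, against 29.6% of all genes, and 34 without Fr3 replicate 1, against 47.1%), 4 to 10 with Fr1 above Fr3 (13.7% to 36.1% of all genes) and 4 to 10 with Fr1 above Fr2 (22.7% to 40.8%). They numbered 9 to 23 with Fr3 above Fr2 (22.6% to 45%) and 22 to 35 with Fr2 above Fr3 (19.4% to 34.4%). Fr1 exceeded Fr3 for 2 members with the mean of all kept probes (14.3% of all genes). Fr1 exceeded Fr2 for 2 with T-rich probes left out (49 members, against 23.1% of all genes). It also did so for 2 with RefSeq mRNA probes only (18.6% of all genes), an alternative chosen after seeing the data. Fr2 exceeded Fr3 for 14 with T-rich probes left out (15.7% of all genes).

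Of 1080 values for 70 pairs of gene and comparison, 1070 kept direction and side of the threshold, 3 passed it without Fr3 replicate 1 (Atp5j2, Surf1 and Tfb2m, as given) and 7 reversed. With T-rich probes left out these were Sdha (0.42 for Fr1 minus Fr2, −1.35 for Fr2 minus Fr3), Nrf1 (−0.10 for Fr1 minus Fr3) and Sucla2 (2.33 for Fr1 minus Fr3, 3.62 for Fr2 minus Fr3). With the mean of all kept probes Sucla2 gave 0.20 and 0.86. Another probe stands for the gene in each; the cause was not tested. With no filter on dim probes the median of all genes was 0.12, 0.31 and −0.28, and that of the members −0.55, −1.0 and 0.20.

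With the replicate block 0 members were called in any comparison, medians were −0.56, −1.02 and 0.20, and all genes called fell from 1, 0 and 1 to 0; it changed no other call. The numbers were not taken to pair the samples.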
